A study of Mus musculus with 142 samples.

Results

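Oligodendrocyte progenitor cells (OPCs) that carried the H3.3 K27M histone mutation were compared between 2 regions of origin, brainstem and dorsal telencephalon, after 1 day in differentiation medium. The libraries were taken by their labelled genotype, region and day, which gave 18 of the 142 libraries of the series. Of these, 9 came from brainstem wells and 9 from telencephalon wells. Each region had 3 cultures, numbered 38, 41 and 42, with 3 wells each. The wells of a culture share its cells, so they were summed and the culture was the replicate (n = 3 per region).

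All cultures started from mouse litters dissected between P5 and P7. The sample records spell them AMGFAP-Cre;K27M, where the study writes hGFAP-Cre. The conditional K27M allele of H3f3a needs Cre, here driven by the promoter of human GFAP, which is active in neural stem and progenitor cells, so their later progeny carry the mutation too. Control cultures, from littermates, gave 17 libraries at day 1, of which 8 were brainstem, since culture 42 had 2 wells there, and 9 were telencephalon. Tissue was pooled over pups by region and genotype, endothelial cells and microglia were depleted, and OPCs were taken by panning with an antibody to PDGFRa. Dorsal telencephalon here means cortex, corpus callosum and hippocampus together. All groups then had forskolin, CNTF and thyroid hormone, while PDGF and neurotrophin-3 were withdrawn. Telencephalon cultures were labelled as batches 1 and 2 and brainstem cultures as batches 3 and 4, so region and batch cannot be told apart in any value that follows. K27M brainstem cultures were at passages 2 to 6 and K27M telencephalon cultures at passages 1 to 4.

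OPCs arise at many levels of the neural tube and keep part of the transcription factor code of the place they came from. Hox genes are set in order along the hindbrain and spinal cord and are silent in the forebrain, where factors such as EMX2 and LHX2 specify the telencephalon. Polycomb repressive complex 2 (PRC2) holds such regulators silent outside their region by trimethylation of histone H3 at lysine 27. The K27M form of H3.3 interferes with that methylation and is a recurrent mutation of diffuse midline glioma. Once PDGF is withdrawn, OPCs leave the cell cycle, pass through a committed stage marked by GPR17, and then switch on the genes of the myelin membrane.

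The K27M libraries held 43.3 to 74.8 M read pairs in brainstem and 26.6 to 84.7 M in telencephalon. Expression is given as CPM, the counts of the summed wells of a culture scaled to library size by TMM. H3f3a, which encodes H3.3 and carries the mutated allele, had 386 to 645 CPM in the 18 K27M wells and 240.4 to 385 CPM in the 17 control wells. Prm1, a protamine gene of the male germ line, had 36.3 to 86.3 CPM in K27M wells and at most 0.0205 CPM in control wells. The study left both genes out of its K27M signature as artifacts. Its Cre construct holds the Prm1 promoter, and its littermate controls, without Cre, express H3f3a from a single allele. By these values, which mark the alleles and not the mutant protein, no library went against its labelled genotype. The lineage regulators Olig2 and Sox10 and the panning target Pdgfra were present in every K27M well, at 267 to 634, 140.4 to 347 and 388 to 1367 CPM.

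Genes of regional identity led the difference between the K27M cultures. Of 20465 genes tested with edgeR's quasi-likelihood test, 208 (1.02%) had an adjusted p under 0.05, of which 141 (0.689%) were higher in brainstem and 67 (0.327%) lower. Among them 129 were at least 2-fold higher and 59 at least 2-fold lower, and 206 had the same sign in all 3 culture pairs. The median log2 difference over all genes was -0.00. The count was 91 without brainstem culture 38, 69 without telencephalon culture 41 and 51 without telencephalon culture 42, and it was 24, all among the 208, with passage as a covariate. When each well of all days was treated as a library, 5755 of 19769 genes (29.1%) were called.

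All 20 Hox genes tested had a positive fitted difference, that is, higher in brainstem. Of the 39 Hox genes in the annotation 20 passed the filter on low counts. Of these 15 were called higher in brainstem (0.689% of all genes were), none was lower and 5 did not pass the test. The median log2 difference of the 20 was 8.58, or 8.21 with the 3 genes that had no telencephalon counts set to a floor of 3 counts. Each had between 0 and 7 counts over all 9 telencephalon wells, too few to pass the filter through these wells. The shared sign and the median of the 20 were thus largely set by the filter. They are no evidence about Hox genes as a set. Levels and counts of single genes are given in place of fitted differences. Hoxa2, which acts at the anterior end of Hox expression in the hindbrain, had 8.72, 11.1 and 16.3 CPM in brainstem cultures 38, 41 and 42 against 0, 0.0103 and 0.00848 CPM in the telencephalon cultures. No brainstem well overlapped a telencephalon well. Here and below, such statements on wells describe single genes, most of them picked for their differences. No share of all genes is given beside them, and wells of a culture are not replicates. That was 6626 counts against 2, a ratio of 2505 with an exact 95% counting interval of 693 to 20690 (adjusted p = 2.06e-05, edgeR). Such intervals cover counting error only.

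Hoxa5 had 8.69, 5.56 and 11.1 CPM in brainstem and 0.0115, 0 and 0 CPM in telencephalon, a ratio of 1750 (interval 484 to 14450). Hoxa4 had 4.79, 4.82 and 6.41 CPM in brainstem and 2 counts in all of telencephalon. Hoxa3 ranged from 5.49 to 5.56 CPM and Hoxb2 from 5.42 to 9.09 CPM over the brainstem cultures, and neither exceeded 0.0513 CPM in a telencephalon culture. Hoxd3, with 1.99 to 4.75 CPM in brainstem, had no counts in any telencephalon well. Against a floor of 3 counts over the group, it was at least 478-fold higher in brainstem.

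The clusters were represented to different degrees. In the Hoxa cluster on chromosome 6 of GRCm38, 6 of 7 genes tested were higher, in the Hoxb cluster (chr11:96194316-96368256) 6 of 7, in the Hoxd cluster (chr2:74668310-74765142) 2 of 3 and in the Hoxc cluster (chr15:102921103-103036852) 1 of 3, which was Hoxc4. Among the genes not called, Hoxa6 had no counts in telencephalon and 0.989, 0.313 and 0.710 CPM in the brainstem cultures (adjusted p = 0.0967, edgeR). Other genes in the clusters or within 500000 bases of them were called to unequal degrees, where the share of all genes was 1.02%. Of the 12 tested in or near the Hoxa cluster 8 were called, among them the non-coding genes Hotairm1, Hoxaas2 and Hoxaas3. Of 15 in or near the Hoxb cluster 1 was called, Hoxb3os, and of 8 in or near the Hoxd cluster 3, which were Gm14424, Gm28230 and Haglr. None of 20 in or near the Hoxc cluster passed by edgeR or DESeq2, with 1 at an unadjusted p under 0.05. All of these called genes lie inside the span of their cluster except Skap2, which lies outside the Hoxa span. Hotairm1 had 2.33 to 3.43 CPM in brainstem and 0.0103 to 0.0172 CPM in telencephalon. Some of these transcripts lie antisense to Hox genes, and the strand setting of the counting is not given in the sources used here, so reads of such pairs may not be fully separated.

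Skap2, an adaptor protein of Src-family kinase signalling, lies within 500000 bases of the Hoxa cluster and, unlike the Hox genes, was expressed in both regions. Its level was 127, 119 and 123 CPM in the brainstem cultures against 19.8, 13.99 and 15.6 CPM in the telencephalon cultures. The wells did not overlap (102 to 142 against 12.98 to 20.2 CPM). The log2 difference was 2.92 ± 0.13 (SE of the fit, n = 3 per region, adjusted p = 2.06e-05, edgeR). Hotairm1 and Skap2 were picked with their values in view. The start regions of Hoxa2 and Skap2 are printed because both genes are near or in 1 cluster and differ in the same direction, while only Skap2 is expressed in telencephalon. They are RefSeq promoters on GRCm38.p6, from 250 bases before to 50 bases after the start, 5′ to 3′ on the strand of the gene, with each CG pair in capitals.
Hoxa2 chr6:52164782-52165081 (minus strand): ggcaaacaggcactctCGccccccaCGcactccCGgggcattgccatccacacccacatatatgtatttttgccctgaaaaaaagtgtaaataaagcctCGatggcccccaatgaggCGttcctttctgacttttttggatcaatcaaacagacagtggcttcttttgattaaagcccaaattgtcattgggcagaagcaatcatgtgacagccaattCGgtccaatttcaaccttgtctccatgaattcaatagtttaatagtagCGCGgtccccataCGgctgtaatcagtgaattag
Skap2 chr6:52012500-52012799 (minus strand): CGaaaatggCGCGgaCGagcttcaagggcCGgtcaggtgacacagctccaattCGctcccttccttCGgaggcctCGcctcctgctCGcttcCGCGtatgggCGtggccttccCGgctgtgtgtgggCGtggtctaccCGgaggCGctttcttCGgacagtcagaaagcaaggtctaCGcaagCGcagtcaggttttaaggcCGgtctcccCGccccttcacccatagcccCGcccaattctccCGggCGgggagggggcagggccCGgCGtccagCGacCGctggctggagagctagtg
CG reads the same on both strands. The Hoxa2 window held 9 such pairs, more than 54.2% of the 32851 promoters in the table, and the Skap2 window 28, more than 85.8%. At least 1 CG pair was present in 94.6% of all promoters.

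**Figure D1:**
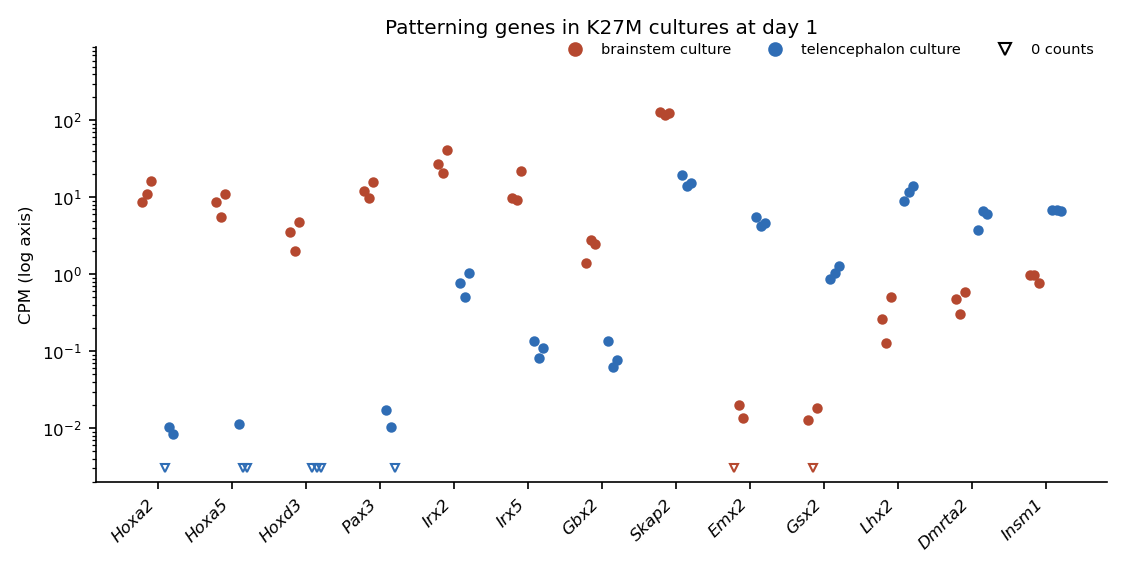
CPM on a log axis of 13 patterning and neighbouring genes in the 3 brainstem and 3 telencephalon K27M cultures at day 1, each point a culture and each open triangle a culture with 0 counts. Hoxa2 sits between 8.72 and 16.3 CPM in brainstem and at or below 0.0103 CPM in telencephalon, and Emx2 shows the opposite order.

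Transcription factors of the midbrain, hindbrain and dorsal neural tube formed another group that was higher in brainstem. Of 26 tested, 10 were higher, none lower and 16 did not pass, where 0.689% of all genes were higher. The median log2 difference was 1.77 beside -0.00 for all genes. Pax3, a marker of the dorsal neural tube, had 12.2, 9.67 and 15.8 CPM in brainstem and 0.0172, 0.0103 and 0 CPM in telencephalon (adjusted p = 0.00173, edgeR). The Iroquois gene Irx5 had 9.69, 9.21 and 21.8 CPM against 0.138, 0.0821 and 0.110 CPM (log2 difference 6.87 ± 0.50, adjusted p = 0.000238, edgeR). Irx2 had 26.9, 20.5 and 40.8 CPM against 0.780, 0.503 and 1.05 CPM, a log2 difference of 5.24 ± 0.52. Wells of the regions did not overlap for any of these 3 genes.

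Gbx2, which sets the hindbrain side of the midbrain-hindbrain boundary, had 1.41 to 2.76 CPM in brainstem and at most 0.138 CPM in telencephalon (log2 difference 4.55 ± 0.53, adjusted p = 0.00413, edgeR). Irx1, Irx3, Zic1 and Meis1 were also among those called. Meis1, a cofactor of HOX proteins, had mean levels of 76.0 and 32.1 CPM (log2 difference 1.22 ± 0.12). En2, a midbrain-hindbrain gene, was present in both regions, at 8.54, 10.3 and 4.47 CPM in brainstem and 13.1, 2.10 and 4.29 CPM in telencephalon. Its cultures overlapped (log2 difference 0.34 ± 0.57, adjusted p = 0.879, edgeR).

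The telencephalic list ran the other way. Of 23 tested, 12 were lower in brainstem, 1 was higher and 10 did not pass, with a median log2 difference of -3.82. Among all genes 0.327% were lower and 0.689% higher. Emx2, a cortical patterning factor, had 0, 0.0200 and 0.0136 CPM in brainstem and 5.61, 4.27 and 4.67 CPM in telencephalon (log2 difference -8.62 ± 0.61, adjusted p = 0.000231, edgeR). Its wells did not overlap between regions. Its antisense gene Emx2os, chosen after its values were seen, had no counts in brainstem and was at least 450-fold higher in telencephalon against the floor of 3 counts.

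Gsx2, Dlx1 and Dlx2, homeobox genes of the ventral telencephalon, were among the 12. Gsx2 had 0.878 to 1.28 CPM in telencephalon and at most 0.0181 CPM in brainstem (adjusted p = 0.00458, edgeR). Dmrta2, Lhx2, Lhx9, Otx1, Otx2 and Vax1 were called as well. Lhx9 was low in both regions, at 0.136 to 0.155 CPM in telencephalon and at most 0.0129 CPM in brainstem, and lost its call without K27M telencephalon culture 42. Vax2 did not exceed 0.0402 CPM in a K27M culture, and its cultures overlapped. The member that was higher in brainstem was Nr2f2, a nuclear receptor, with mean levels of 5.72 and 1.89 CPM (log2 difference 1.63 ± 0.29, adjusted p = 0.0334, edgeR).

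Of the 10 highest protein-coding genes with a mean of at least 5 CPM in a region, 8 were Hox, Pax or Irx genes, and the other two were Cabp7, a calcium-binding protein, and Cdh8, a cadherin. Cabp7 had 4.03, 4.29 and 7.96 CPM in brainstem against 0.293, 0.257 and 0.288 CPM in telencephalon (log2 difference 4.25 ± 0.42, adjusted p = 0.00186, edgeR). Cdh8 had 8.18, 3.11 and 12.8 CPM against 0.482, 0.328 and 0.526 CPM (log2 difference 4.10 ± 0.45). Wells did not overlap for either gene, although Cdh8 varied widely among the brainstem cultures.

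Among the 10 lowest genes, Insm1, a zinc-finger factor of neuronal progenitors, was steady within each region, at 0.969, 0.992 and 0.782 CPM in brainstem and 6.96, 6.75 and 6.67 CPM in telencephalon (log2 difference -2.90 ± 0.33, adjusted p = 0.00405, edgeR). Nyap2, a neuronal adaptor of phosphoinositide 3-kinase signalling, had 0.592 to 0.763 against 5.03 to 8.73 CPM (log2 difference -3.28 ± 0.44). Fbln2, an extracellular matrix glycoprotein, had 1.01 to 2.90 against 4.86 to 16.4 CPM (log2 difference -2.56 ± 0.38). Clvs2, Tmem179 and the lipid flippase gene Atp10b followed, with log2 differences of -2.25 ± 0.36, -2.13 ± 0.40 and -1.95 ± 0.31. Wells did not overlap for any of these 6 genes, which were picked for large differences of the same sign in all 3 pairs. Of 21 alternative settings Insm1 was called in 20, Nyap2 in 19, Fbln2 in 16, Clvs2 in 16, Tmem179 in 12 and Atp10b in 17, and the last 4 each lost their call without K27M telencephalon culture 41 or 42, as Nyap2 did without K27M brainstem culture 38.

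**Figure D2:**
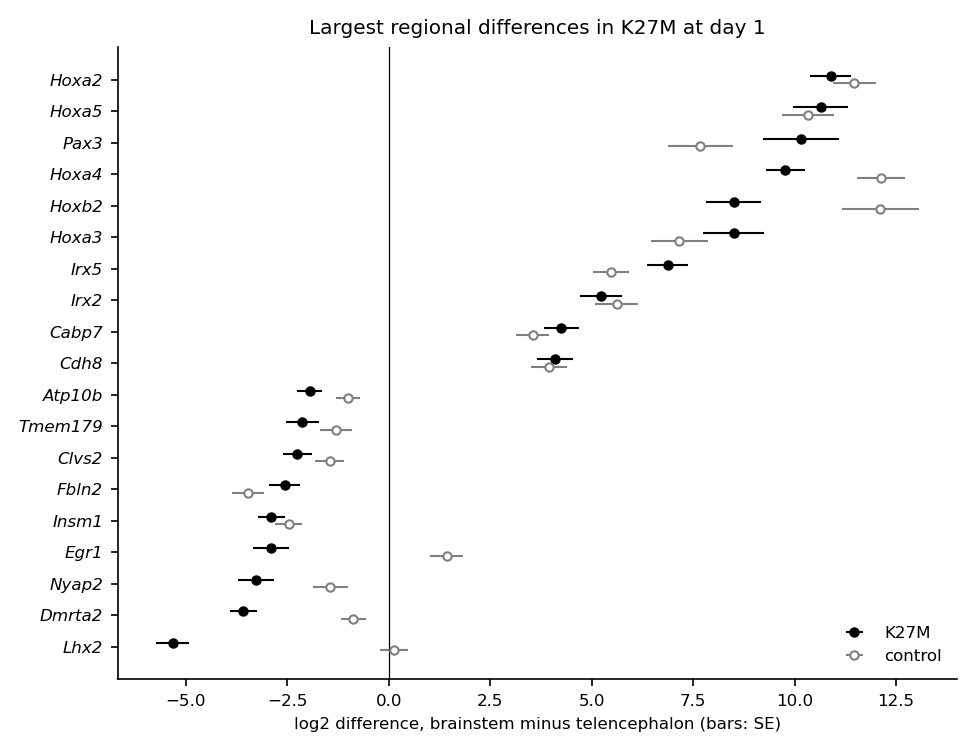
Log2 difference, brainstem minus telencephalon, of the 10 highest and 9 of the 10 lowest genes in K27M and in control cultures at day 1, with bars for the SE of the fit over 3 cultures per group. Lhx2 sits at -5.33 in K27M and 0.13 in control and Egr1 at -2.91 and 1.43, while the other genes drawn lie on the same side of 0 in both genotypes.

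The same regional comparison was made in control cultures, which are other libraries, to see which differences belong to both genotypes. It called 1313 of the 20465 genes (6.42%), 902 higher and 411 lower in brainstem. Of the 208 genes called in K27M, 200 had the same sign in control and 130 were called there in the same direction, which is 62.5% of the K27M genes and 9.90% of the control genes. Of the 20 Hox genes 17 were called in control, with a median log2 difference of 8.56. The difference between the regional differences was then tested in the same fit. Lhx2 alone passed, 1 of 20465 (0.00489%), while 2913 genes (14.2%) had an unadjusted p under 0.05. DESeq2 on the same culture sums called 421 genes and edgeR on wells of all days called 7070 of 19769 (35.8%).

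Lhx2, a LIM-homeodomain factor of forebrain and eye development, differed by region in K27M and not detectably in control. In K27M it had 0.265, 0.127 and 0.502 CPM in the brainstem cultures and 8.87, 11.9 and 13.9 CPM in the telencephalon cultures, with wells from 0.0857 to 0.700 and from 8.22 to 15.8 CPM. In control it had 6.39, 5.97 and 8.08 CPM in brainstem and 6.95, 6.09 and 5.12 CPM in telencephalon, which overlapped. All K27M brainstem cultures lay below, and all K27M telencephalon cultures above, the 6 control cultures. The regional log2 difference was -5.33 ± 0.41 in K27M (adjusted p = 0.000341, edgeR) and 0.13 ± 0.34 in control (adjusted p = 0.825), and the difference between them -5.46 ± 0.51 (adjusted p = 0.0272). Over 20 alternatives the last value ranged from -5.99 to -5.08, with adjusted p from 5.30e-77 to 0.228, and it passed in 10 of them. When single cultures were left out it passed without control telencephalon culture 42, K27M brainstem culture 41 or K27M brainstem culture 42, and missed the threshold without any of the other 9 cultures or with passage as a covariate.

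RefSeq gives Lhx2 a pair of start regions, printed because this gene alone passed the test between genotypes, with the same conventions as for Hoxa2.
Lhx2 chr2:38339031-38339330 (plus strand): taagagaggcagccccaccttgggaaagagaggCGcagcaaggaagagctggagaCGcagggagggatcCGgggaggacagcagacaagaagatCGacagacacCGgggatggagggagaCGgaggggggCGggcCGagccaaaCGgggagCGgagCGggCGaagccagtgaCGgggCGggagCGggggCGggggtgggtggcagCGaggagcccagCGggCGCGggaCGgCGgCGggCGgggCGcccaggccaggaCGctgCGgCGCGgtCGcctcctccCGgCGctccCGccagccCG
Lhx2 chr2:38351058-38351357 (plus strand): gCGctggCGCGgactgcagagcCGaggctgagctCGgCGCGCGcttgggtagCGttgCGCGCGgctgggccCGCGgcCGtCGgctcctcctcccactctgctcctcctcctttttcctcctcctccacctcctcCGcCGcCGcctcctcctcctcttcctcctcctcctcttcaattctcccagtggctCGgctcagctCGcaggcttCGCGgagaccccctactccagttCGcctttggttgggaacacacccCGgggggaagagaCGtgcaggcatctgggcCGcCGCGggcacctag
The windows held 34 and 29 CG pairs, more than 92.3% and 87.1% of the promoters in the table. Counts per gene do not tell which start was used.

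For 7 more of the 208 genes the regional difference had opposite signs in K27M and control, none of which passed the test between genotypes. Itga4, an integrin subunit, was the 1 of 18 integrins called, where 1.02% of all genes were. It had 6.31, 11.1 and 10.8 CPM in K27M brainstem and 25.1, 45.3 and 35.3 CPM in K27M telencephalon (log2 difference -1.90 ± 0.34, adjusted p = 0.0336, edgeR). It was called in 13 of 21 alternatives and lost its call without K27M telencephalon culture 41 or 42, control brainstem culture 41 or 42 or any K27M brainstem culture. In control it had 22.1, 15.04 and 13.6 against 13.5, 8.66 and 7.67 CPM. The cultures of each genotype were thus apart by region, in opposite order. In control the nearest were 13.6 and 13.5 CPM and the difference did not pass (log2 difference 0.77, adjusted p = 0.156, edgeR). The difference between genotypes was -2.67 ± 0.47 (adjusted p = 0.228, edgeR). Dmrta2, a factor of the dorsal telencephalon, had the same sign in both genotypes. It had 0.306 to 0.588 against 3.82 to 6.63 CPM in K27M and 0.658 to 0.811 against 1.01 to 1.59 CPM in control, and the difference between genotypes was -2.70 ± 0.44 and did not pass (adjusted p = 0.228, edgeR).

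**Figure D3:**
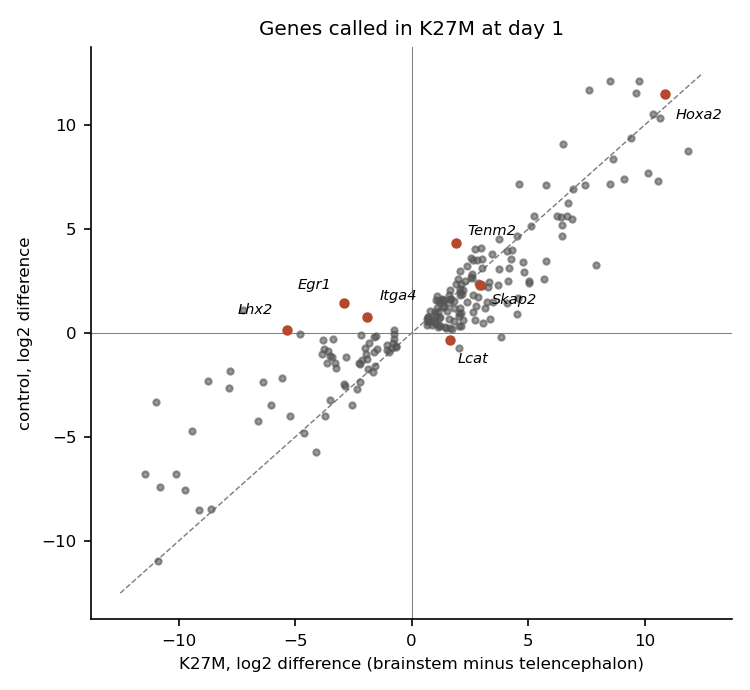
Log2 difference, brainstem minus telencephalon, in control against K27M for the 208 genes called in K27M, each point a gene, with a dashed line of equal differences. Of these genes 200 have the same sign on both axes, Hoxa2 lies near the dashed line, and Lhx2, Egr1 and Itga4 lie off it.

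Immediate early genes, which respond within minutes to growth factor and MAPK signalling, held 1 call in K27M. Of 28 tested 1 was lower in brainstem (0.327% of all genes were), none was higher and 27 did not pass. The median log2 difference was -0.51, and 7 had an unadjusted p under 0.05, as had 2364 of all 20465 genes (11.6%). In control the median was 0.51 and 3 were higher, as were 902 of all 20465 genes. The difference between genotypes had a median of -1.02 and was negative for 22 of 28 genes. None passed that test, while 10 had an unadjusted p under 0.05 (14.2% of all genes had). The gene called in K27M, the zinc-finger factor Egr1, had 2.72, 4.35 and 15.6 CPM in K27M brainstem and 32.8, 59.4 and 46.4 CPM in K27M telencephalon (log2 difference -2.91 ± 0.43, adjusted p = 0.0189, edgeR). Wells did not overlap (2.29 to 17.5 against 30.4 to 61.99 CPM). It was called in 14 of 21 alternatives and lost its call without K27M brainstem or telencephalon culture 38 or 41. In control it had 48.9, 49.5 and 95.4 CPM in brainstem and 18.6, 23.7 and 25.9 CPM in telencephalon, and the difference between genotypes was -4.33 ± 0.59 (adjusted p = 0.228, edgeR). Fos, chosen after its values were seen, had 38.1 to 75.4 against 90.6 to 126 CPM in K27M (adjusted p = 0.0547, edgeR) and 104 to 161 against 71.3 to 76.2 CPM in control. The K27M median of the list was -0.73, -0.76 and 0.19 in the culture pairs 38, 41 and 42, so culture 42 did not share its sign.

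Genes of oligodendrocyte differentiation were called in K27M in 1 case. Of 24 genes of committed and newly formed oligodendrocytes none passed by edgeR or DESeq2 and 3 had an unadjusted p under 0.05 (11.6% of all genes had), with a median log2 difference of 0.07. Of 32 myelin genes 1 was higher (0.689% of all genes were) and none lower, with a median of 0.23. That gene was Il33, a cytokine, at 1.33 to 2.08 CPM in brainstem and 0.103 to 0.229 CPM in telencephalon (log2 difference 3.51 ± 0.60, adjusted p = 0.0268, edgeR). It was called in 14 of 21 alternatives and lost its call when any 1 of the 6 K27M cultures was left out. In control the medians of the lists were -1.11 and -1.12. The difference between genotypes had a median of 1.28 over the first list and 1.46 over the second and was positive for 21 of 24 and 29 of 32 genes. No gene of either list passed that test, while 10 and 13 had an unadjusted p under 0.05 (14.2% of all genes had). DESeq2 on the same sums called 1 and 2, where it called 421 of 20683 genes. With wells of all days as libraries 19 and 23 were called, all positive, where 35.8% of all genes were called. Wells of a culture are not independent.

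The brainstem cultures spread widely in these genes. Gpr17, the receptor of the committed stage, had 741, 1608 and 517 CPM in brainstem and 1511, 2129 and 1520 CPM in telencephalon (log2 difference -0.94 ± 0.37, adjusted p = 0.359, edgeR). Mbp, which encodes myelin basic protein, had 650.2, 1797 and 79.9 CPM in brainstem and 378, 235 and 282 CPM in telencephalon (log2 difference 1.37 ± 1.13, adjusted p = 0.715, edgeR). Brainstem cultures 38 and 41 lay above the telencephalon cultures in Mbp and culture 42 below them. Cnp, an early enzyme of the myelinating cell, had 1489, 2389 and 460.5 against 1698, 1392 and 1137 CPM. Fyn, a kinase of process outgrowth, had 491, 883 and 330.4 against 643, 546 and 452 CPM. Culture 42 was the lowest of the brainstem cultures in all 4 genes. The median of committed genes was 0.09, 0.74 and -0.83 in the pairs 38, 41 and 42, and that of myelin genes 0.21, 1.03 and -0.76. In control all 3 pairs were below 0 for both lists.

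OPC genes (22 tested), lineage transcription factors (32) and cholesterol synthesis (24) had no member past edgeR's test in K27M, with medians of -0.19, -0.09 and 0.05. At an unadjusted p under 0.05, where 11.6% of all genes lay, there were 7, 10 and 1. DESeq2 on the same sums called 1, 3 and 0, where it called 889 of 23018 genes. In control the medians were 0.58, -0.48 and -0.49. The difference between genotypes had medians of -0.62, 0.11 and 0.51 and was positive for 5, 17 and 23 genes. No gene passed that test, while 11, 11 and 6 had an unadjusted p under 0.05 (14.2% of all genes had). In K27M Pdgfra had 521, 398 and 1109 CPM in brainstem and 808, 1162 and 1154 CPM in telencephalon (log2 difference -0.67 ± 0.32, adjusted p = 0.473, edgeR). Olig2 had 294, 409 and 392 against 505, 624 and 521 CPM, so its cultures did not overlap but its wells did (log2 difference -0.60 ± 0.14, adjusted p = 0.102, edgeR). Sox10 had 229, 277 and 144 against 327, 285 and 242 CPM, which overlapped. Hmgcs1, an early enzyme of cholesterol synthesis, had 842 to 1972 against 1159 to 1531 CPM. In bulk RNA fewer cells of a stage and less RNA per cell cannot be told apart.

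**Figure D4:**
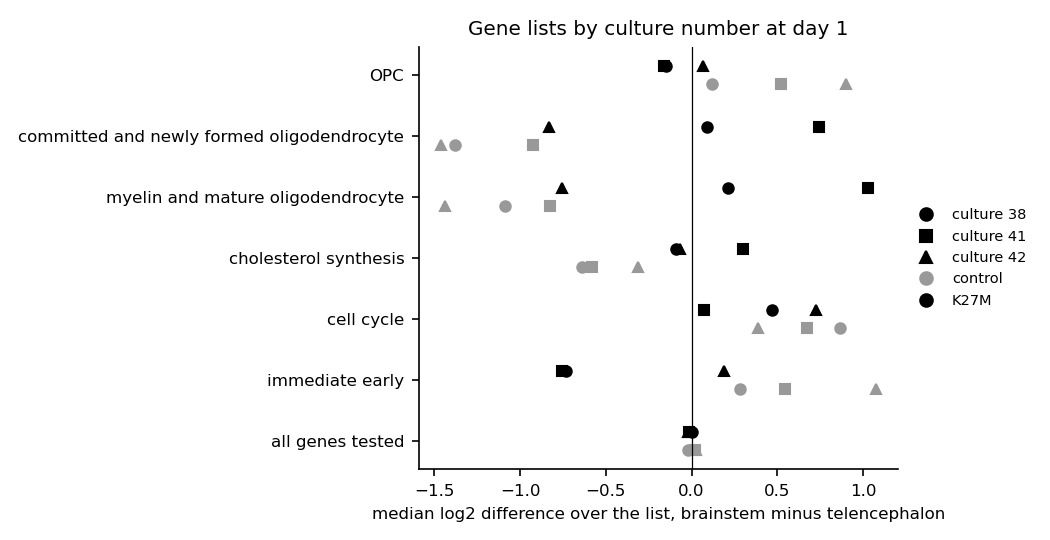
Median log2 difference, brainstem minus telencephalon, over the tested members of 6 gene lists and over all genes, for each culture number in K27M and in control at day 1. The K27M medians of committed and myelin genes run from -0.83 to 1.03, on both sides of 0, while the control medians of both lists are below 0.

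Of 39 cell cycle genes none passed edgeR's test in K27M, 2 had an unadjusted p under 0.05 (11.6% of all genes had), 36 had a positive difference and the median log2 difference was 0.51. DESeq2 on the same sums called 1, where it called 889 of 23018 genes. With edgeR on wells of all days 20 were called, where 29.1% of all genes were. All of these were higher in brainstem. In control the median was 0.59 and 1 passed (6.42% of all genes did). Ccnd1, the D-type cyclin of growth factor response, had 336, 246 and 909 CPM in K27M brainstem and 142, 162 and 160.3 CPM in K27M telencephalon, with wells that did not overlap (log2 difference 1.56 ± 0.52, adjusted p = 0.254, edgeR). Mki67, the proliferation marker, had 712, 163 and 819 against 425, 148 and 456 CPM. Culture 41 had the lowest Mki67 of each region, and the regions overlapped. Ccnb1, a mitotic cyclin, had 242, 32.7 and 225 against 147, 54.5 and 192 CPM, and Lmnb1, a nuclear lamin, 119, 61.9 and 129 against 91.3, 74.8 and 103 CPM.

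In the Wnt list 3 of 47 genes were higher in brainstem and none lower, where 0.689% of all genes were called higher and 0.327% lower, with a median log2 difference of 0.18. Axin2, a feedback inhibitor and common target of Wnt signalling, had 22.4, 25.4 and 27.2 CPM in brainstem and 12.8, 9.99 and 10.6 CPM in telencephalon (log2 difference 1.17 ± 0.16, adjusted p = 0.0105, edgeR). Lgr5, an R-spondin receptor, had 36.8, 16.3 and 45.9 against 7.00, 5.91 and 7.04 CPM (log2 difference 2.29 ± 0.36), and the receptor Ror1 7.00 to 9.62 against 2.33 to 3.48 CPM (log2 difference 1.47 ± 0.27). Wells did not overlap for these 3 genes. In the Notch list 2 of 31 were lower and none higher, with a median of 0.01. The ligand Dll1 had 34.96, 40.1 and 70.2 against 126, 139.7 and 139 CPM (log2 difference -1.52 ± 0.24, adjusted p = 0.022, edgeR). Psen2, a catalytic subunit of gamma-secretase, had 8.83 to 13.2 against 19.5 to 23.5 CPM (log2 difference -1.07 ± 0.20). Of 21 alternatives Axin2 was called in 18, Lgr5 in 16, Ror1 in 11, Dll1 in 15 and Psen2 in 11, and each lost its call without K27M telencephalon culture 41 or 42. Dll1, Lgr5, Ror1 and Psen2 lost theirs without further K27M cultures, and Ror1 and Psen2 also without single control cultures.

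Of 56 axon guidance genes 6 were higher in brainstem (0.689% of all genes were) and none lower, with a median log2 difference of 0.24. Tenm2, a teneurin adhesion protein, had 15.9 to 26.4 CPM in brainstem against 4.54 to 6.16 CPM in telencephalon (log2 difference 1.93 ± 0.36, adjusted p = 0.0407, edgeR). Robo2, a Slit receptor, had 72.5, 42.5 and 66.5 against 27.97, 21.4 and 27.7 CPM (log2 difference 1.21 ± 0.21), and Ntn1, which encodes netrin-1, 53.2, 47.3 and 93.3 against 25.6, 28.96 and 32.96 CPM (log2 difference 1.12 ± 0.21). The ephrin gene Efna5, its receptor family member Ephb2 and the netrin receptor Unc5c were the others. Among 24 growth factor receptors Ret was higher, at 0.714 to 1.20 against 0.174 to 0.314 CPM (log2 difference 2.04 ± 0.35, adjusted p = 0.0283, edgeR), and Pdgfrb lower. Among all genes 0.689% were higher and 0.327% lower. Of 21 alternatives Tenm2 was called in 10, Robo2 in 12, Ntn1 in 10, Efna5 in 7 and Ret in 13, and each lost its call without K27M brainstem culture 38 or any K27M telencephalon culture. Tenm2, Ntn1, Efna5 and Ret lost theirs without single control cultures as well.

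No member passed edgeR's test in the BMP (38 tested), TGFb (23), PRC2 and H3.3 (17), fetal and imprinted (26), CDK inhibitor and p53 target (18), integrated stress response (22), interferon (17) or mitochondrially encoded (13) lists, with medians between -0.23 and 0.21. At an unadjusted p under 0.05 they held 0 to 6 members each (11.6% of all genes). DESeq2 on the same sums called 0 to 4, where it called 889 of 23018 genes. The imprinted RNA H19 had 1337, 2421 and 1209 CPM in brainstem and 7034, 5548 and 5334 CPM in telencephalon, with no overlap of wells (log2 difference -1.86 ± 0.47, adjusted p = 0.131, edgeR).

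Markers of other cell types moved in part with region. The 15 astrocyte markers summed to 909.9 to 1221 CPM in K27M brainstem wells and 436.5 to 1151 CPM in telencephalon wells. Of 14 tested 1 was higher (0.689% of all genes were), none was lower and 13 did not pass, with a median log2 difference of 0.30. At an unadjusted p under 0.05, where 11.6% of all genes lay, 5 were positive and 3 negative, the last being Gja1 (-2.61), Sparcl1 (-2.19) and Sox9 (-0.93 on the log2 scale). The gene called was the glutamate transporter Slc1a2, at 261, 148 and 315 against 34.8, 38.8 and 42.8 CPM (log2 difference 2.60 ± 0.22, adjusted p = 0.000776, edgeR). In control its log2 difference was 2.64 ± 0.22. The rest of the list did not follow it there: the control median was -1.01, with 2 called higher and 4 lower. Of all 20465 genes 902 and 411 were. The difference between genotypes was positive for 11 of the 14 and none passed, while 7 had an unadjusted p under 0.05 (14.2% of all genes had). In K27M Gfap had 33.2, 97.3 and 30.02 against 6.32, 70.3 and 107 CPM and Aqp4 1.53, 14.98 and 0.511 against 2.21, 14.3 and 33.6 CPM. These 2 defining markers, chosen after their values were seen, overlapped between regions, and Gjb6 was at 0 in brainstem.

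The 16 vascular and fibroblast markers summed to 6.55 to 21.8 CPM in brainstem wells and 7.24 to 60.9 CPM in telencephalon wells. Of 14 tested Pdgfrb was lower in brainstem (0.327% of all genes were) and none higher, with a median log2 difference of -1.49. At an unadjusted p under 0.05 there were 7, all lower (11.6% of all genes had such a p). DESeq2 on the same sums called 2, both lower, where it called 889 of 23018 genes. Acta2 reached 6.45 and Col3a1 7.13 CPM in telencephalon, with at most 0.845 and 0.359 CPM in brainstem. Fbln2, also a gene of connective tissue, differed in the same direction, and the part of such cells in its difference was not tested. The 13 microglia markers summed to 16.9 to 27.8 CPM in brainstem and 14.5 to 25.9 CPM in telencephalon, with C1qa, C1qb, C1qc and Tyrobp at 0 in brainstem. The 17 neuron markers summed to 1177 to 1451 and 1150 to 1365 CPM and the 10 Schwann cell markers to 303 to 509 and 349 to 432 CPM. No marker of these 3 lists passed edgeR's test, with 1, 8 and 2 at an unadjusted p under 0.05 (11.6% of all genes). DESeq2 on the same sums called 1, 3 and 1, where it called 889 of 23018 genes.

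The regional difference in K27M was followed from proliferation medium (day 0, 18 libraries) to day 2 (17 libraries). CPM over the days was scaled over the cultures of all days and both genotypes together. By edgeR's quasi-likelihood test no gene of 21146 changed its regional difference from day 0 to day 1 (0.0%) or from day 1 to day 2 (0.0%), with 1361 (6.44%) and 1418 (6.71%) genes at an unadjusted p under 0.05. DESeq2 was not run on these contrasts. The regions held their order on every day for Hoxa2, Emx2 and Lhx2. Hoxa2 had mean levels of 13.9, 11.5 and 10.1 CPM in brainstem on days 0, 1 and 2 and at most 0.0177 CPM in a telencephalon culture. Emx2 had 5.54, 4.48 and 3.98 CPM in telencephalon and 0, 0.0107 and 0.0132 CPM in brainstem. Lhx2 had 15.4, 10.7 and 7.16 CPM in telencephalon and 0.258, 0.283 and 0.0725 CPM in brainstem.

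Egr1 was apart between regions at day 1 and overlapped on the other days. At day 0 it had 68.8, 44.9 and 45.4 CPM in brainstem and 55.9, 59.1 and 45.2 CPM in telencephalon, and at day 2 7.52, 26.3 and 12.6 against 12.3, 7.05 and 46.6 CPM. Fbln2 was apart on each day, at 4.21 to 12.1 against 39.98 to 69.6 CPM at day 0 and 0.776 to 2.56 against 3.26 to 11.3 CPM at day 2. Insm1 was apart on each day as well. Mbp at day 2 had 3666, 8684 and 1274 CPM in brainstem cultures 38, 41 and 42 and 5092, 3979 and 2757 CPM in telencephalon, so culture 41 was again the highest and culture 42 the lowest of the brainstem cultures. Mki67 had mean levels of 972, 536 and 301 CPM in brainstem and 695, 317 and 195 CPM in telencephalon on the 3 days.

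**Figure D5:**
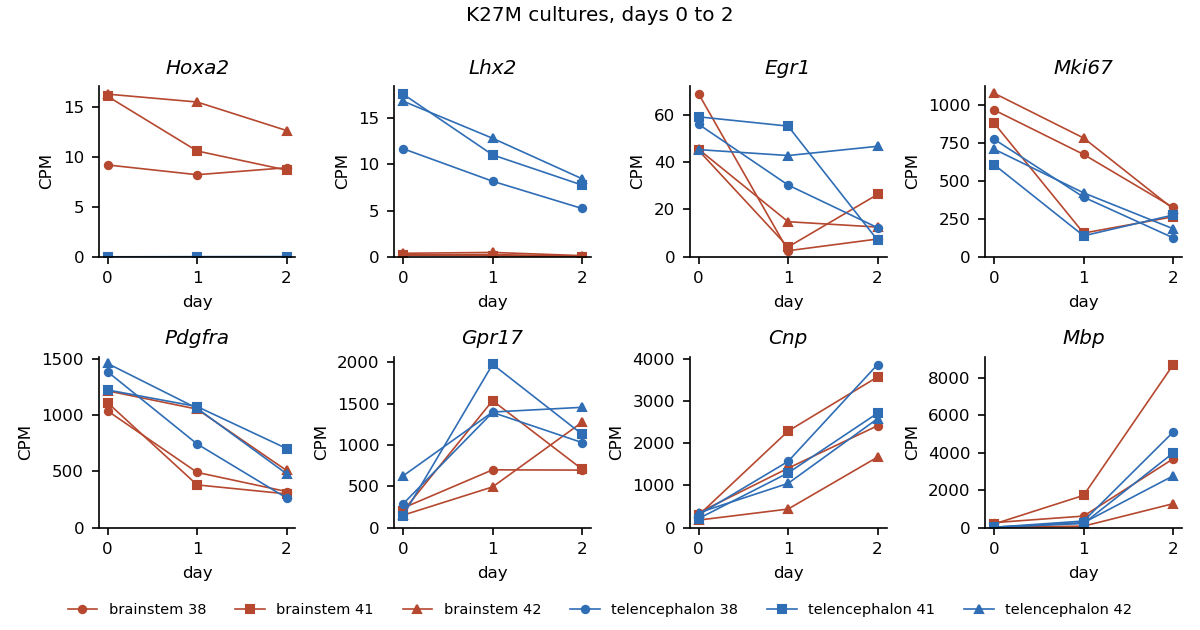
CPM of 8 genes against day of differentiation (days 0 to 2) in K27M cultures, each line a culture of brainstem or telencephalon. Hoxa2 and Lhx2 stay apart between regions on every day, Egr1 is apart at day 1 only, and at day 2 the Mbp values of brainstem, 1274 to 8684 CPM, span those of telencephalon.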

How the data were processed

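RNA was sequenced from wells of cultured OPCs with a stranded total RNA kit. The authors quantified transcripts with Salmon (version 1.10.1 in the submitters' processing notes) on mm10. The deposited files hold estimated counts, TPM and effective transcript lengths per library. Only the deposited estimated counts entered the main test. They were summed to genes with the GENCODE M21 annotation of GRCm38, which matched 139821 of 141084 transcripts and gave 54127 genes. Deposited TPM values were not tested, and deposited effective lengths served 1 alternative. Gene counts were summed over the wells of a culture, rounded to whole numbers and scaled by TMM. Genes were filtered with filterByExpr and tested with edgeR 4.0.16 (R 4.3.3), using the robust quasi-likelihood test with Benjamini-Hochberg adjustment over all genes. The 12 culture lines of day 1 entered 1 fit, with group and culture number as terms and 6 residual degrees of freedom. Each SE was derived from the log2 difference and its quasi-likelihood F statistic. It therefore draws on the control cultures too and is not the spread of the K27M cultures alone. For days 0 to 2 the K27M lines were fitted with the line as a block.

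Same-numbered K27M cultures of the 2 regions deviated together (r = 0.117 to 0.280 across genes), so the number was kept as a block, while in control r was -0.0322 to 0.116. The block also spanned the genotypes, where same-numbered cultures had r of -0.125 to 0.221 in brainstem and 0.136 to 0.166 in telencephalon. In each region culture 38 had another batch label than cultures 41 and 42, so the block holds part of the batch. Nothing states that numbers mark separate litters, so p-values measure the spread between these cultures. No pair of wells looked like a repeat deposit of 1 library (mean chi-square per gene 3.80 to 169.5 over 34 pairs of wells).

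The libraries compared, the gene lists and the tests were chosen with earlier results of these data known. Genes were named by rule: the 10 highest and 10 lowest protein-coding genes with adjusted p under 0.05, the same sign in all 3 pairs, a mean of at least 5 CPM in a region and no provisional name, for each list the 4 called genes with the largest difference and at least 1 CPM or else those of highest CPM, and genes the study shows. Further genes are named as members called or at 0, and some genes that the rule picks are not reported here. Alternatives were size factors, no filter, no block, passage as a covariate, a length offset, K27M libraries alone, DESeq2 1.42.0, wells as libraries and each culture left out. The fits were tested on simulated data.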

Additional observations from a re-analysis of the deposited data

Results flagged for a closer look

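The regional difference of Lhx2 differed between genotypes by the test of that difference, at -5.46 on the log2 scale (K27M minus control, edgeR). All 3 K27M pairs were lower in brainstem.

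Single wells were compared with the other wells of their group in 54 groups of values, and chance alone sets about 1 in 20 such groups apart. In K27M telencephalon the lowest Insm1 well, of culture 42, had 5.83 CPM and the next 6.62 CPM. The deepest well, of culture 38, had 84.7 M read pairs and the next 52.2 M.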

How the results depend on the processing

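The count of 208 genes became 368 without the filter on low counts (40138 genes tested), 24 with passage as a covariate, 889 with DESeq2 on the same sums, 2104 with DESeq2 on wells and a fold threshold of 1.1, and 5755 with edgeR on wells of all days. It ranged from 51 to 248 when each culture was left out in turn. Without K27M telencephalon culture 38 it was 139, of which 64 were higher and 75 lower. The count for the difference between genotypes, 1 gene, became 23 without the filter, 0 with passage, 421 with DESeq2 on sums, 3273 with DESeq2 on wells and 7070 with edgeR on wells, and ranged from 0 to 14 over the cultures left out, with 14 without K27M brainstem culture 42. The count of genes called for a change of the regional difference from day 0 to day 1 became 1 without the filter. The causes of these changes were not tested, and some alternatives also held more libraries or genes. Wells of a culture are not independent, so counts from wells are not comparable with those from cultures.

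Without the replicate block of paired culture numbers 279 genes were called, 186 of them among the 208. Of the 20 genes named by size, 10 were called in all 21 alternatives (among them Hoxa2, Hoxa3, Hoxa4, Hoxa5, Pax3, Irx5, Cabp7, Lhx2 and Dmrta2), and of the 40 called genes followed 14 were. The other 26 lost their call with passage as a covariate, 19 of them also without at least 1 single culture, and none reversed. With 3 cultures per region, small differences were not detectable: the median SE over all genes was 0.27 on the log2 scale for the regional difference and 0.38 for the difference between genotypes. Region and batch cannot be told apart.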
